A study of Mus musculus with 6 samples.

Results

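Cohesin subunits were followed in differentiating and undifferentiated mouse spermatogonia. The members were the 10 genes Rec8, Rad21l, Stag3 and Smc1b (meiotic subunits), Rad21, Stag1, Stag2 and Smc1a (their mitotic counterparts), and Smc3 and Pds5b (shared by both kinds of complex). They were found by gene symbol, and each had 1 row among the 24973 genes of the deposited table. β-2M-SPα-6+c-kit+ differentiating spermatogonia and β-2M-SPα-6+c-kit- undifferentiated spermatogonia, below named c-kit+ cells and c-kit- cells, were sorted from FVB/N mice aged 2 to 3 months, with 3 samples of each population. All cells of both populations were selected with beads for α-6 integrin, stained with Hoechst, which the side population (SP) keeps out, and gated on β-2 microglobulin and c-kit. A sample held 10000 cells of 1 mouse, and no source says whether a mouse gave cells to both populations. From each sample, 500 pg of RNA was amplified for 1 Affymetrix Mouse Gene 2.0 ST array, so a value is an average over the stages within a gate. The values are log2 signals after robust multi-array average (RMA) normalization. Log2 fold changes are c-kit+ minus c-kit-, and a call required an adjusted p below 0.05 in limma, with the adjustment over all genes.

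Cohesin is a ring of proteins that holds sister chromatids together from DNA replication until the chromosomes part, and that folds chromatin into loops. The ring is made of an SMC1 and an SMC3 protein, closed by a kleisin, which carries an SA (STAG) subunit, and PDS5 proteins bind to it. Dividing body cells use SMC1A, the kleisin RAD21, and STAG1 or STAG2. Germ cells that enter meiosis add complexes with SMC1B, the kleisins REC8 and RAD21L, and STAG3. These form the axis on which homologous chromosomes pair, and REC8 keeps sister centromeres together through the first division. Male mice without Rec8, Rad21l, Stag3 or Smc1b arrest in meiosis and are sterile.

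Of the 4 meiotic subunit genes, 3 were called higher in c-kit+ cells, while 0 of the 4 mitotic ones passed (limma, with 0 also at an unadjusted p under 0.05). Smc1b, Rec8 and Stag3 rose by 2.14-fold, 1.92-fold and 1.60-fold. Rad21l pointed the same way without passing the test. Over all genes, 18.1% were called, 8.79% as higher and 9.33% as lower in c-kit+ cells. Of the 10 members, 3 were called higher and 0 lower (limma, adjusted p under 0.05), and 6 had an unadjusted p under 0.05. The share of all genes with an unadjusted p under 0.05 was not computed, so counts at that level have no background to be read against. Among the 8252 genes whose mean signal was at least that of Rec8, the lowest member, 31.5% were called, 15.6% as higher. The log2 fold changes had a median of 0.81 over the 4 meiotic subunits and -0.07 over the 4 mitotic subunits, beside 0.04 over all genes tested.

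**Figure D1:**
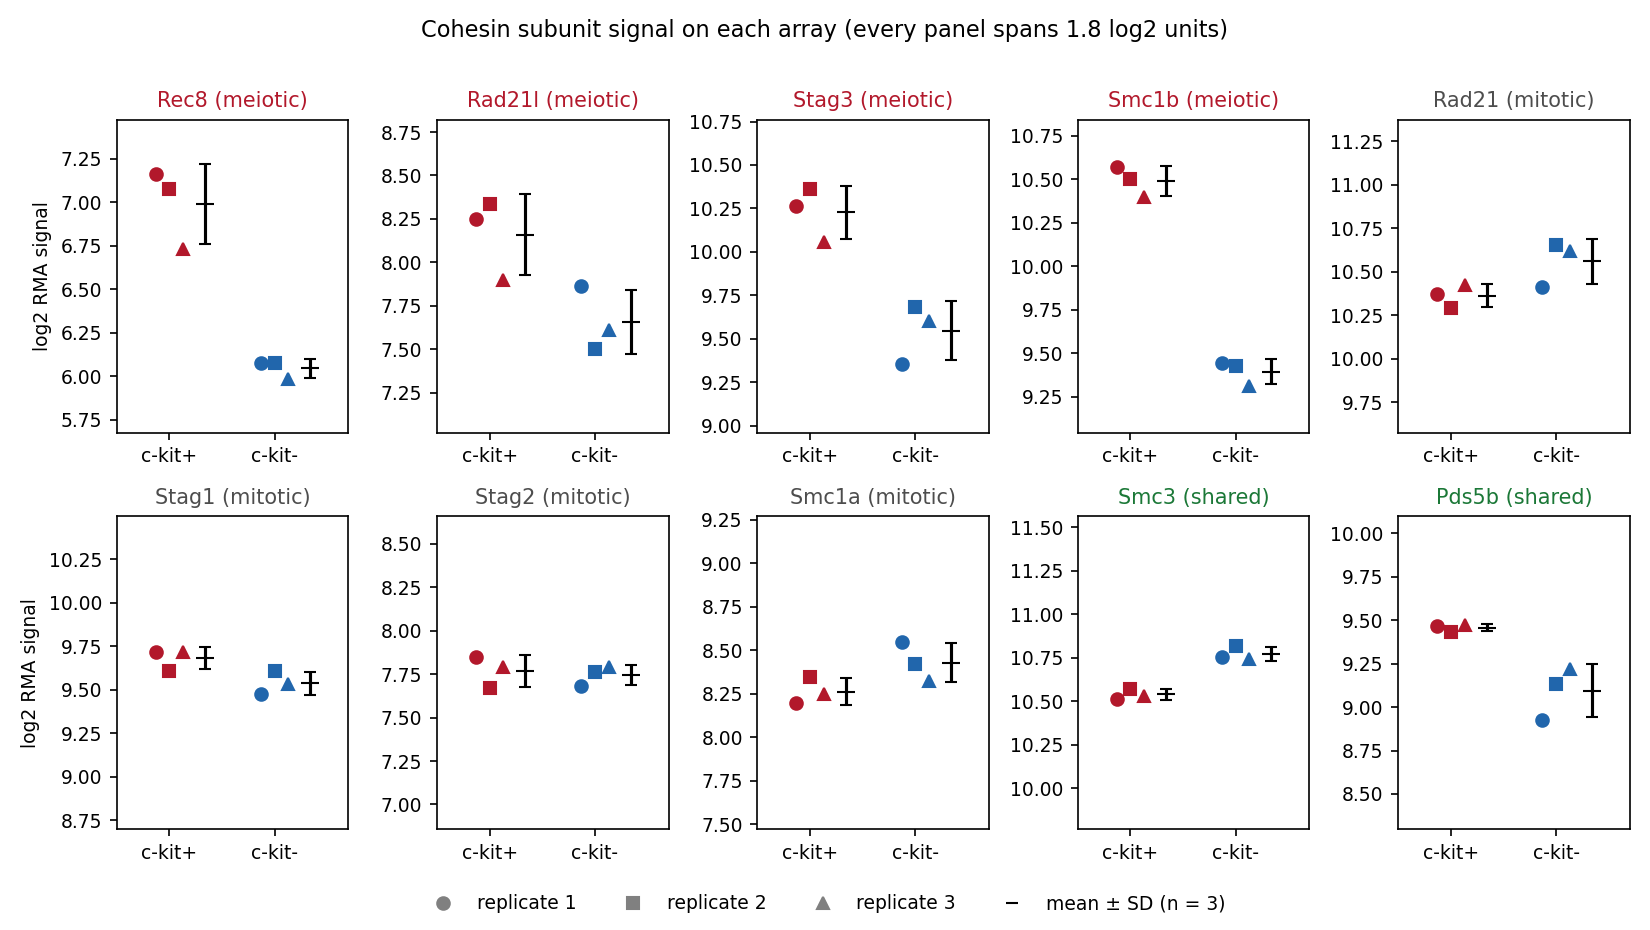
Log2 RMA signal of the 10 cohesin subunits on each array, with c-kit+ arrays (red) left of c-kit- arrays (blue), a symbol for each replicate and the mean ± SD of 3 arrays as a black bar. The c-kit+ arrays lie above the c-kit- arrays for all 4 meiotic subunits, by 0.95 for Smc1b and by 0.03 for Rad21l, while the arrays of both populations overlap for Rad21, Stag2 and Smc1a.

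Of the meiotic kleisins, Rec8 was called and Rad21l was not. The difference between these 2 was not tested, and their unadjusted 95% intervals overlap. Rec8, on chromosome 14, was at 7.16, 7.07 and 6.73 on the c-kit+ arrays, against 6.07, 6.08 and 5.98 on the c-kit- arrays. The groups did not overlap, and the c-kit- arrays lay within 0.09 of each other. This gave a log2 fold change of 0.94 ± 0.13 (standard error; limma, adjusted p = 0.00203). Rad21l, on chromosome 2, encodes the other meiotic kleisin, which acts in early prophase. It was at 8.25, 8.34 and 7.90 on the c-kit+ arrays, against 7.86, 7.50 and 7.61 on the c-kit- arrays. The lowest c-kit+ array, replicate 3, lay 0.03 above the highest c-kit- array, replicate 1. The log2 fold change of Rad21l came to 0.50 ± 0.15 (limma, adjusted p = 0.0550), with an unadjusted 95% interval of 0.15 to 0.85. Rad21l was called when c-kit+ replicate 3 was left out (limma, adjusted p = 0.0324) and when c-kit- replicate 1 was (0.0397). With any other array left out its adjusted p was at most 0.170 and not under the threshold. Over all 15 other settings, described at the end, 6 called Rad21l.

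The SA subunit and the SMC1 subunit of meiotic cohesin both rose. Stag3, on chromosome 5, encodes the SA subunit that all meiotic kleisins can use. Its signal was 10.26, 10.36 and 10.06 on the c-kit+ arrays, against 9.36, 9.68 and 9.60 on the c-kit- arrays. The groups were 0.38 apart, and the spread was 0.30 within c-kit+ and 0.32 within c-kit- arrays. The difference was 0.68 ± 0.13 on the log2 scale (limma, adjusted p = 0.00851). Smc1b, on chromosome 15, encodes the meiotic SMC1 protein, and it had the largest change of the 10 members. It was at 10.57, 10.50 and 10.40 on the c-kit+ arrays, against 9.44, 9.43 and 9.31 on the c-kit- arrays. The gap between the groups was 5.44 times the wider of the ranges within them. The log2 fold change of Smc1b was 1.10 ± 0.11 (limma, adjusted p = 3.27e-04).

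The mitotic kleisin and the mitotic SMC1 were slightly lower in c-kit+ cells and not called. Rad21 was at 10.37, 10.29 and 10.42 on the c-kit+ arrays, against 10.41, 10.65 and 10.62 on the c-kit- arrays. Only c-kit+ replicate 3 reached the c-kit- range, and the log2 fold change was -0.20 (adjusted p = 0.285 from limma, 95% interval -0.45 to 0.06). Smc1a, an X-linked gene, was at 8.19, 8.34 and 8.25 on the c-kit+ arrays, against 8.55, 8.42 and 8.32 on the c-kit- arrays. Its arrays overlapped, and the log2 fold change was -0.17 (adjusted p = 0.367 from limma, 95% interval -0.42 to 0.08). These intervals leave room for a fall in Rad21 or Smc1a but lie below the 95% intervals of Rec8 and Smc1b.

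Neither mitotic SA gene was called. Stag1 and Stag2 encode alternative SA subunits, of which STAG1 serves cohesion at telomeres and STAG2 at centromeres. Stag1 was at 9.72, 9.61 and 9.72 on the c-kit+ arrays, against 9.48, 9.61 and 9.53 on the c-kit- arrays. The groups only just failed to overlap, since replicate 2 of both populations had nearly equal values. Its log2 fold change was 0.14 (adjusted p = 0.409 from limma, 95% interval -0.09 to 0.38). The X-linked gene Stag2 was at 7.85, 7.67 and 7.79 on the c-kit+ arrays, against 7.68, 7.76 and 7.79 on the c-kit- arrays. Its values were interleaved, and the log2 fold change was 0.02 (adjusted p = 0.912 from limma, 95% interval -0.21 to 0.26).

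Smc3 and Pds5b, which serve both kinds of complex, pointed in opposite directions. SMC3 is the partner of both SMC1 proteins. Smc3 was at 10.51, 10.57 and 10.53 on the c-kit+ arrays, against 10.75, 10.82 and 10.75 on the c-kit- arrays. Every c-kit+ array was below every c-kit- array, by a small step of 0.17, and the log2 fold change was -0.23 (adjusted p = 0.148 from limma, 95% interval -0.45 to -0.01). PDS5B binds the kleisin and both stabilizes and releases the ring. Pds5b was at 9.47, 9.43 and 9.47 on the c-kit+ arrays, against 8.93, 9.14 and 9.22 on the c-kit- arrays. Here all c-kit+ arrays were higher and nearly equal, and the log2 fold change was 0.36 (adjusted p = 0.0601 from limma, 95% interval 0.10 to 0.62). Their calls moved with the test: Smc3 passed as lower with the study's per-gene test and with a mean-dependent robust variance (adjusted p = 0.0246 and 0.0322). In all results here, that per-gene test was read at an adjusted p under 0.05. The paper's own fold change cut and p threshold were not applied, so these are not the paper's calls. Pds5b passed as higher under 3 settings (adjusted p = 0.0250 to 0.0385 from limma).

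**Figure D2:**
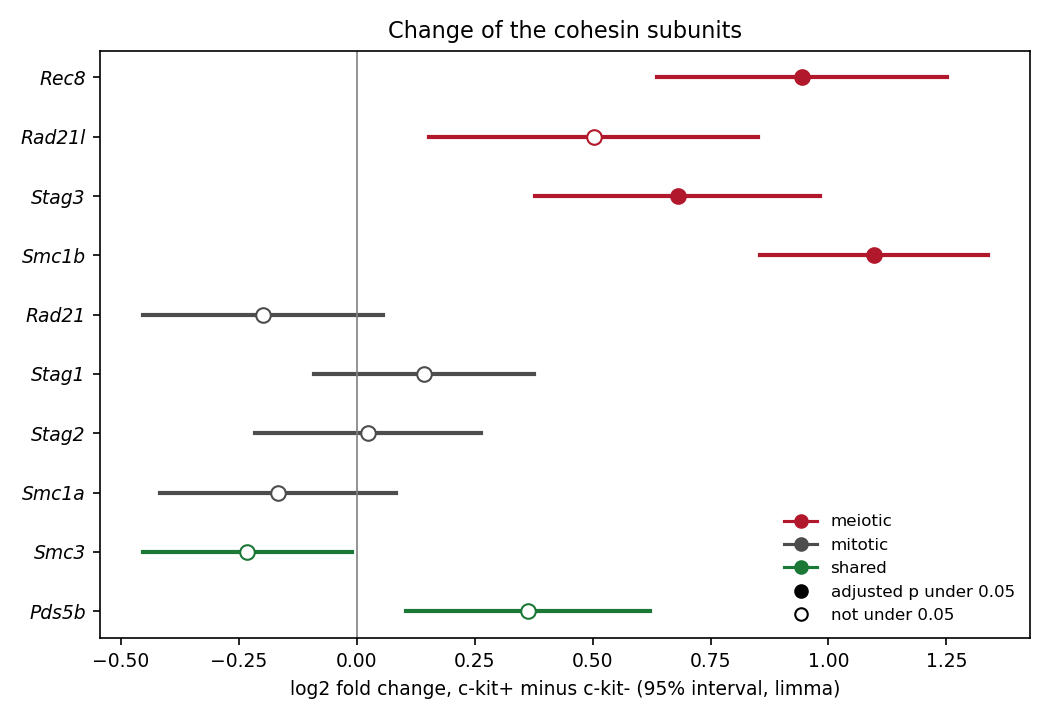
Log2 fold change (c-kit+ minus c-kit-) of the 10 cohesin subunits with its unadjusted 95% interval from limma, coloured by class, with filled points at an adjusted p under 0.05. The 4 meiotic subunits lie between 0.50 and 1.10 and the 4 mitotic subunits between -0.20 and 0.14.

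In all, the c-kit+ arrays lay wholly above the c-kit- arrays for 6 members and wholly below for 1, where 19.1% of all genes were wholly above, 15.9% wholly below and 35.1% either. For each of these members the two-sided exact permutation test gave p = 0.1, the smallest value that 3 arrays against 3 allow. The meiotic subunits varied more among c-kit+ arrays than the mitotic ones. The median SD of the 4 meiotic subunits was 0.19 in c-kit+ cells and 0.12 in c-kit- cells, and that of the 4 mitotic subunits was 0.07 in c-kit+ cells and 0.09 in c-kit- cells. Over all genes it was 0.14 in c-kit+ cells and 0.15 in c-kit- cells, and over the 8252 genes with at least the signal of Rec8 it was 0.11 in c-kit+ cells and 0.15 in c-kit- cells.

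Whether a meiotic subunit changed more than its mitotic counterpart was tested on the difference itself, in 5 pairs. Smc1b exceeded Smc1a by 1.26 in log2 fold change, a 2.40-fold shift of their ratio. The per-array difference of this pair had an SD of 0.13 in c-kit+ cells and 0.06 in c-kit- cells. Rec8 exceeded Rad21 by 1.14 (SD 0.28 in c-kit+ cells and 0.16 in c-kit- cells), and Rad21l exceeded Rad21 by 0.70 (SD 0.29 in c-kit+ cells and 0.31 in c-kit- cells). Stag3 exceeded Stag1 by 0.54 (SD 0.21 in c-kit+ cells and 0.11 in c-kit- cells) and Stag2 by 0.66 (SD 0.22 in c-kit+ cells and 0.12 in c-kit- cells). In all 5 pairs the per-array differences of the c-kit+ cells lay above those of the c-kit- cells. Each had p = 0.1 before and after Benjamini-Hochberg adjustment over the pairs, the smallest that the exact permutation test can give here. Any pair without overlap gets this p, and the pairs are not independent, since Rad21 and Stag3 recur. No share over other gene pairs was computed, and 35.1% of single genes did not overlap. The margin was 1.14 for Smc1b against Smc1a and 0.02 for Rad21l against Rad21. Signals of different genes come from different probes, so these values compare changes, not amounts.

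Start regions, as given by RefSeq for GRCm38.p6, are shown for Stag3 and Stag1 and for Smc1b and Smc1a. In these pairs the meiotic gene was called and the mitotic one was not, and both hold an E2F site. The pair differences themselves had only the smallest p that their permutation test allows. Of the 10 members, 8 had a RefSeq start region of 300 bases, with 1 annotated start for each, where a gene may have several. The regions of Stag3, Stag1 and Rad21l lie wholly inside the annotated gene, downstream of where it begins. The 4 shown, Stag3, Stag1, Smc1b and Smc1a, lie at chr5:138280259-138280558 (plus strand), chr9:100643198-100643497 (plus strand), chr15:85131908-85132207 (minus strand) and chrX:152016178-152016477 (plus strand). Each holds 250 bases before the start and 50 after it, 5′ to 3′ on the gene's strand. Capitals mark TTCCCGC, the core that E2F factors bind, and CACGTG, the E-box bound by MAX and other basic helix-loop-helix factors, both searched on both strands, and the 2 motifs do not overlap.
Stag3: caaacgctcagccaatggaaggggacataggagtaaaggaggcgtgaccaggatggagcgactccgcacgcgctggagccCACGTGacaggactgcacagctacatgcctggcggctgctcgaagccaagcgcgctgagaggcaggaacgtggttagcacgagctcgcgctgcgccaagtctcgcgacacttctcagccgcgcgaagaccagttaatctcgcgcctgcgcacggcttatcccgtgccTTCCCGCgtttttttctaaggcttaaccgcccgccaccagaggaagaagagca
Stag1: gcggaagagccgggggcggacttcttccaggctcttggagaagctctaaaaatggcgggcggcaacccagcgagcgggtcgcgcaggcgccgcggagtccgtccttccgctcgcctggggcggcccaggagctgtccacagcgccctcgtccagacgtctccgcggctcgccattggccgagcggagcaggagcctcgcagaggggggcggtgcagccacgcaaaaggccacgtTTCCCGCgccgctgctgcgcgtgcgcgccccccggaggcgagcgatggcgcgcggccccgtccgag
Smc1b: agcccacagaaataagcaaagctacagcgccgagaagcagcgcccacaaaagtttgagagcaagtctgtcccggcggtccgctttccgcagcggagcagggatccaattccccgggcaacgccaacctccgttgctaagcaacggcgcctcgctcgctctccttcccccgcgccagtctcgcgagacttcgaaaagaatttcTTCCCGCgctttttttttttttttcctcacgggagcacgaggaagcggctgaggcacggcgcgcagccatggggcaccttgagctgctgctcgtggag
Smc1a: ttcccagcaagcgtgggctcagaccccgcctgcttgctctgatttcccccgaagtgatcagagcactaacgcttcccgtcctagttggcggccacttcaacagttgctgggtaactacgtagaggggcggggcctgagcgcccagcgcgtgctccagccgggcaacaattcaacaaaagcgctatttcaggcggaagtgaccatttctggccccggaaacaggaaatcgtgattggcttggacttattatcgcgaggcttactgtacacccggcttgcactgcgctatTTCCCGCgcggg

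TTCCCGC began 3 bases before the start of Stag3, 48 before that of Smc1b and 16 before that of Stag1, and 38 bases after that of Smc1a. These pairs were shown because they share this site, so its presence in both genes of a pair is not a result. Rad21 and Stag2 had no start region, so the other pairs could not be compared. Of all 32851 start regions, 4.60% held the site. CACGTG stood in Stag3 alone of the 8 members, 170 bases before the start, and in 7.15% of all start regions. The element CNCCTCAG, which has been linked to the binding of STRA8 in mouse germ cells, was found in Pds5b alone of the 8, and in 7.94% of all start regions. The region of Rec8 held none of these motifs, nor did those of Rad21l and Smc3. The region of Rad21l, which lies inside the annotated gene, was the poorest in G and C of the 8 at 29.0%. The others held 58.3% to 75.7%, beside a median of 52.7% over all start regions. A match is a description of letters and does not show a bound site.

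Some listed regulators of meiotic genes moved between the populations as well. STRA8 and MEIOSIN (Bhmg1 on the array) switch on meiotic genes at the entry into meiosis. Stra8 and Bhmg1 rose by 1.87 and 4.06 on the log2 scale. E2F6, MAX, MGA, PCGF6 and L3MBTL2 are parts of a Polycomb complex, PRC1.6, that keeps germline genes silent in other cell types, and in mouse somatic cells E2F6 silences Smc1b and Stag3. E2f6 was at 7.92, 7.58 and 7.68 on the c-kit+ arrays, against 8.89, 8.55 and 8.36 on the c-kit- arrays. Pcgf6 was at 6.67, 6.62 and 6.34 on the c-kit+ arrays, against 8.31, 8.56 and 8.08 on the c-kit- arrays. The arrays of the populations were apart for both genes. The log2 fold change was -0.88 for E2f6, -1.77 for Pcgf6 and -0.54 for Max (adjusted p = 0.00642, 1.92e-04 and 0.0122 from limma). Mga and L3mbtl2, at -0.08 and 0.21, were not called, nor were Dmrt1 and Dazl, at 0.17 and 0.16. The list held 9 regulators, of which 2 were called higher, 3 lower and 4 neither way, beside 8.79% higher and 9.33% lower over all genes. The part of these regulators in the change of the meiotic subunits was not tested.

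Genes that load cohesin on chromatin or take it off did not move together. NIPBL with MAU2 loads the ring, and WAPL with the PDS5 proteins opens it. Nipbl was at 8.91, 8.91 and 8.71 on the c-kit+ arrays, against 9.29, 9.25 and 9.30 on the c-kit- arrays. All c-kit+ arrays were lower, and the log2 fold change was -0.44 (adjusted p = 0.0218 from limma). The call was lost without c-kit+ replicate 3, c-kit- replicate 2 or c-kit- replicate 3 (adjusted p = 0.0849, 0.0531 and 0.0636). Pds5a, the paralog of Pds5b, was at 9.30, 9.08 and 9.06 on the c-kit+ arrays, against 8.18, 8.46 and 8.20 on the c-kit- arrays. It was higher on every c-kit+ array, with a log2 fold change of 0.87 (adjusted p = 0.00216 from limma). Neither Mau2 nor Wapl was called, at 0.30 and -0.23 (adjusted p = 0.179 and 0.217 from limma).

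Of the enzymes that set and remove the acetyl mark on SMC3, by which cohesion is established, Esco2 changed. ESCO2 acts in S phase. Esco2 was at 9.54, 9.39 and 9.40 on the c-kit+ arrays, against 8.52, 8.37 and 8.49 on the c-kit- arrays. The populations were far apart relative to the spread within each, with a log2 fold change of 0.98 ± 0.11 (limma, adjusted p = 5.44e-04). Esco1, whose product acts throughout the cell cycle, had 0.34 and did not pass (adjusted p = 0.0777 from limma). Hdac8, the SMC3 deacetylase, and Cdca5, the gene of sororin, which shields acetylated cohesin from WAPL, had 0.24 and 0.22 (adjusted p = 0.247 and 0.240 from limma).

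Genes for the cleavage and protection of cohesin were called in 3 of 9 cases, all higher in c-kit+ cells, beside 8.79% higher over all genes. PLK1 phosphorylates cohesin for its removal from chromosome arms, and BUB1 and shugoshin (SGO1) protect it at centromeres. The log2 fold change was 1.28 for Plk1, 0.70 for Bub1 and 0.59 for Sgo1 (adjusted p = 5.77e-04, 0.00513 and 0.0135 from limma). Sgo1 was at 7.14, 7.04 and 6.98 on the c-kit+ arrays, against 6.62, 6.53 and 6.25 on the c-kit- arrays. It stood apart on all arrays but lost its call without c-kit+ replicate 1 (adjusted p = 0.0541 from limma) and in the study's per-gene test (adjusted p = 0.0639). Espl1, the gene of separase, which cuts the kleisin, had 0.19, and its inhibitor Pttg1 (securin) had -0.08 (adjusted p = 0.401 and 0.673 from limma). Sgo2a, whose product protects REC8 in meiosis, had -0.11 and the meiosis-specific Meikin 0.22 (adjusted p = 0.582 and 0.221 from limma). Haspin, a histone kinase at centromeres, had -0.06, which turned to 0.0020 with array weights, and Sgo2b had -0.17. Neither of these was called (adjusted p = 0.880 and 0.347 from limma).

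Ctcf and its paralog Ctcfl both rose. CTCF stops cohesin where loops end, and CTCFL (BORIS) is its paralog in male germ cells. Ctcf was at 9.11, 9.36 and 9.38 on the c-kit+ arrays, against 8.23, 8.53 and 8.67 on the c-kit- arrays. Ctcfl was at 5.73, 5.57 and 5.62 on the c-kit+ arrays, against 5.11, 4.81 and 4.68 on the c-kit- arrays. The mean signal of Ctcfl was below the median level of all genes. Neither gene's arrays overlapped, and the log2 fold changes were nearly equal, at 0.81 and 0.78 (adjusted p = 0.00592 and 0.00490 from limma). In the study's per-gene test Ctcf missed the threshold (adjusted p = 0.0588). Over the 19 genes of loading, acetylation, cleavage and protection with Ctcf and Ctcfl, 7 were called higher, 1 lower and 11 neither way. Their median log2 fold change was 0.24. Over all genes, 8.79% were called higher and 9.33% lower. Among genes with at least the mean signal of Rec8, 15.6% were called higher.

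**Figure D3:**
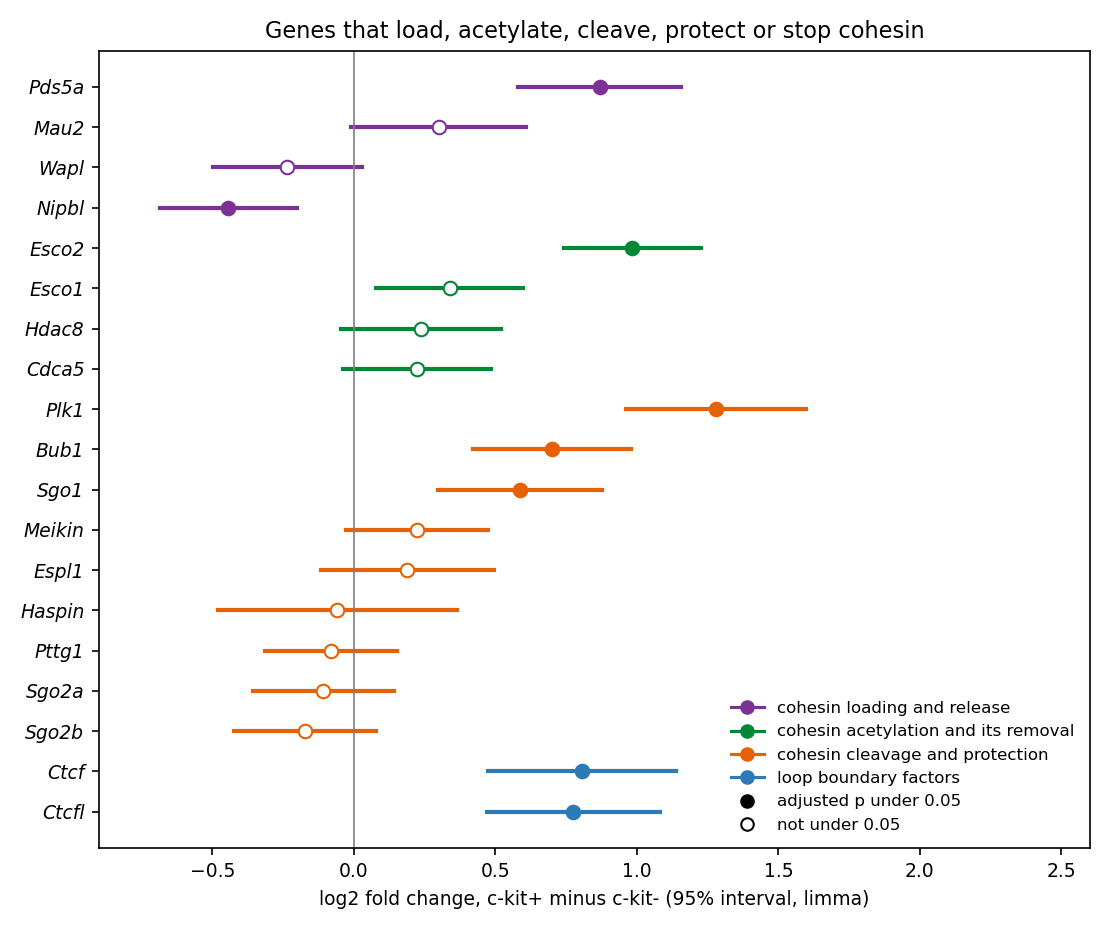
Log2 fold change (c-kit+ minus c-kit-) of 19 cohesin regulators with the unadjusted 95% interval from limma, coloured by role, with filled points at an adjusted p under 0.05. Filled points reach 1.28 for Plk1, and Nipbl at -0.44 is the filled point below 0.

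The related SMC complexes changed in part. Condensin compacts chromosomes for division, and 3 of its 8 subunit genes were higher, Ncapg2, Smc4 and Smc2 (log2 fold changes 0.94, 0.75 and 0.73), while 5 did not pass. With cyclic loess normalization, above the median level, with the robust variance and without c-kit- replicate 1, 1 condensin gene was called lower. Of the 9 genes of the SMC5/6 complex, which acts in DNA repair, Slf2 was higher (0.45) and 8 did not pass, and the count was 0 without c-kit+ replicate 1, c-kit+ replicate 3 or c-kit- replicate 2. It was 2 or 3 under 5 other settings, and 1 gene of the complex was called lower above the median level and with the replicate block. The chromosome axis and the synaptonemal complex are built on meiotic cohesin, and 6 of their 10 genes were called, all as higher. Sycp2, Hormad2, Hormad1 and Syce1 led with log2 fold changes of 0.89, 0.82, 0.81 and 0.66. Beside these counts, 8.79% of all genes were called higher, and 15.6% of those with at least the mean signal of Rec8.

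Outside the members, the array pattern closest to the mean pattern of the 4 meiotic subunits belonged to Vps35, Ccdc142, Lats1, Gins3 and Dvl1. Likeness was the Euclidean distance over the 6 arrays between values centred on each gene's own mean. The distances were 0.09 for Vps35 and 0.11 for Dvl1, and the subunits themselves lay 0.20 (Rec8) to 0.46 (Rad21l) from their mean.

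Sort, cell cycle and other cell types were measured on the same arrays. Kit was 3.64 higher in c-kit+ cells on the log2 scale. Of 8 markers of differentiating spermatogonia, 6 were higher and 1 (Sohlh1) was lower (-0.65). The call of Sohlh1 was lost in the study's per-gene test and without c-kit+ replicate 1, c-kit+ replicate 2, c-kit- replicate 2 or c-kit- replicate 3. All 12 markers of undifferentiated spermatogonia were lower. Kit encodes the sort marker, and the paper names all 12 as positive in the c-kit- profile of these arrays. The lists were chosen with earlier results known, so these counts are no independent check of the sort. The mean over 4 germ cell markers was 10.94 to 11.09 in c-kit+ cells and 10.71 to 10.98 in c-kit- cells. Of 28 S phase genes, 16 were higher and 2 lower in c-kit+ cells, and of 24 mitosis genes 11 were higher and 0 lower (limma; 16 of the 24 had an unadjusted p under 0.05). The shares over all genes were 8.79% higher and 9.33% lower at the adjusted threshold, and none was computed for an unadjusted p. Cells in S phase or division hold more RNA of Esco2, Plk1, Bub1 and Sgo1, and the part of the cell cycle in these results was not tested. Of 13 markers of pachytene spermatocytes, which make meiotic cohesin in quantity, Mybl1 and Hspa2 were called higher (0.86 and 0.69) and Piwil1 lower (-0.40), the call of Piwil1 being lost with any array but c-kit- replicate 2 left out. The mean of that list was 7.25 to 7.36 in c-kit+ cells and 6.86 to 7.24 in c-kit- cells. Of 12 spermatid markers, 1 was called (0 when any array but c-kit- replicate 3 was left out). Their mean was 9.37 to 9.65 in c-kit+ cells and 9.22 to 9.78 in c-kit- cells, a high signal in both populations. Prm1, Prm2, Tnp1 and Tnp2 lay at percentiles of 99.8 to 99.9 of mean signal over all genes, and Tssk6, the lowest of the list, at 61.8. Of 12 Sertoli cell markers, 1 was called (0 when any array but c-kit+ replicate 1 was left out), with means of 6.03 to 6.24 in c-kit+ cells and 5.98 to 6.15 in c-kit- cells. In such mixed samples, more cells of a type and more RNA per cell cannot be told apart.

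Leukocyte genes differed among the c-kit+ arrays, as the meiotic subunits did. Leukocytes carry Ptprc (CD45) on their surface, and the gate took cells without surface β-2 microglobulin. Among 14 leukocyte genes, Cd74, H2-Ab1 and C1qb were called higher, and the other 11 were not, beside 8.79% higher over all genes. Without c-kit+ replicate 3 the count was 10, and with any other array left out it was 1. Ptprc was at 3.79, 4.15 and 3.62 on the c-kit+ arrays, against 3.47, 3.43 and 3.43 on the c-kit- arrays, and was not called. Averaged over the list, the signal came to 6.49 on c-kit+ replicate 1, 6.15 on replicate 2 and 5.27 on replicate 3, while the c-kit- arrays spanned 5.12 to 5.40. The meiotic subunits were also lowest on replicate 3 among c-kit+ arrays, in 4 of 4 genes, as were 32.2% of all genes and 45.9% of those called higher. On c-kit+ replicates 1, 2 and 3, the chromosome axis and synaptonemal complex list averaged 9.48, 9.39 and 9.24. Markers of undifferentiated spermatogonia averaged 5.74, 5.83 and 6.02, and those of differentiating spermatogonia 9.15, 9.13 and 9.10. The S phase list averaged 8.70, 8.64 and 8.68, and the mitosis list 9.35, 9.24 and 9.29. With replicate 3 as the single c-kit+ array, a setting chosen after these values were seen, the log2 fold change was 1.00 for Smc1b, 0.68 for Rec8, 0.51 for Stag3 and 0.24 for Rad21l. Smc1b kept its call (adjusted p = 0.0403 from limma), and Rec8 and Stag3 did not (adjusted p = 0.0930 and 0.254), in a fit that called 239 of all genes higher. Among 5 pairs of paralogs, the meiotic gene still changed more than its counterpart, by 0.33 to 1.18. The part of leukocytes, or of what these other lists measure, in the change of the meiotic subunits was not tested.

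**Figure D4:**
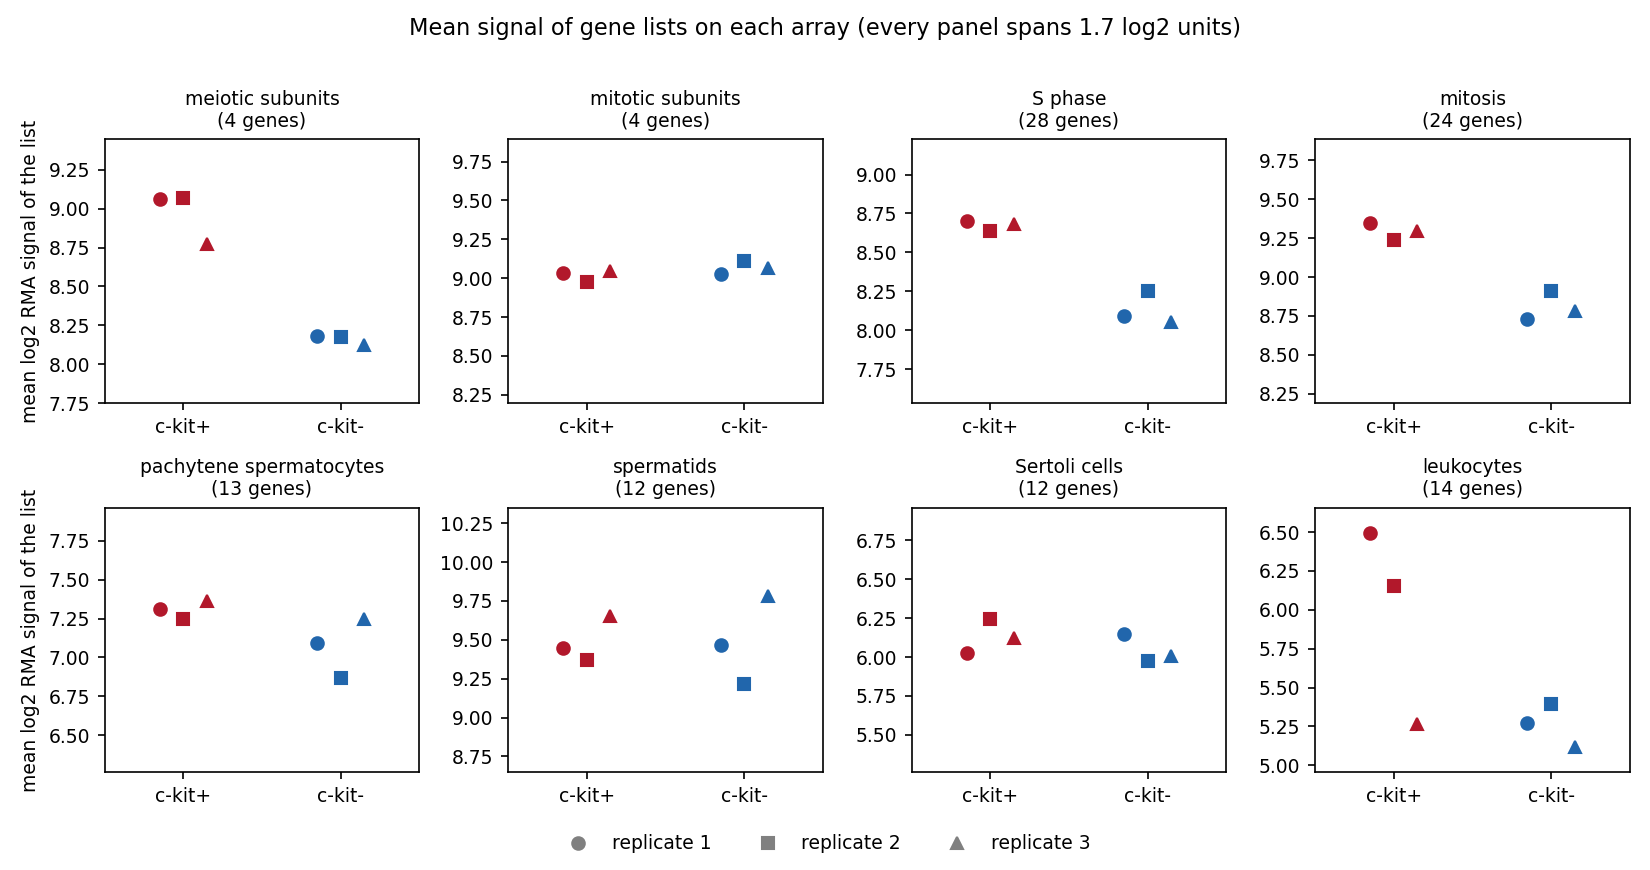
Mean log2 RMA signal of the meiotic and mitotic subunits and of 6 gene lists on each array, with c-kit+ arrays (red) left of c-kit- arrays (blue) and a symbol for each replicate. The meiotic mean is 9.06, 9.07 and 8.77 on the c-kit+ arrays and 8.13 to 8.18 on the c-kit- arrays, and the leukocyte mean falls on c-kit+ replicate 3 to the range of the c-kit- arrays.

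Leaving out any single array kept the calls of Rec8, Stag3 and Smc1b. Their highest adjusted p was 0.0111, 0.0357 and 0.00265 from limma. No mitotic subunit passed under any of 15 other settings, of which 1 tested only the genes above the median level, with adjusted p of at least 0.143 for Rad21, 0.199 for Stag1, 0.771 for Stag2 and 0.274 for Smc1a. With the study's per-gene test, Stag3 missed the threshold used here (adjusted p = 0.0585), while Rec8 and Smc1b passed (adjusted p = 0.0338 and 0.0104). The paper's fold change cut and p threshold were not applied.

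**Figure D5:**
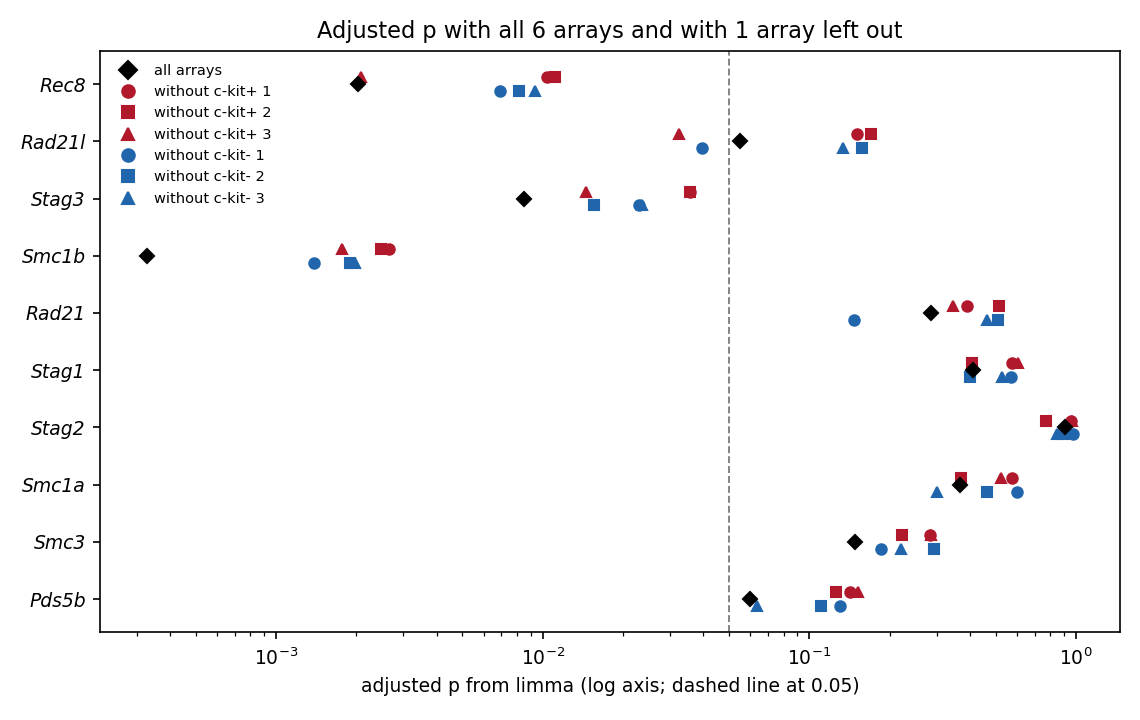
Adjusted p from limma (log axis) for each cohesin subunit with all 6 arrays (black diamonds) and with 1 array left out (c-kit+ in red, c-kit- in blue), with a dashed line at 0.05. Rec8, Stag3 and Smc1b stay left of the line in every fit, and Rad21l crosses it in 2 of 6.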

How the data were processed

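RNA of 3 samples of each population was read on 6 Mouse Gene 2.0 ST arrays of Affymetrix. The deposited values are log2 signals that the authors made by robust multi-array average (RMA) in R/Bioconductor, which corrects background, applies quantile normalization and summarizes probes; the RMA version and probe set definition are not given in the sources used here. The table holds 1 value for each of 24973 Entrez gene IDs, from 2.03 to 12.97, with array medians of 5.25 to 5.33. Of these, 24481 were named from RefSeq's GRCm38.p6 gene table and 93 from the platform's. No scaling or filter was added. The R package limma (version 3.58.1, R 4.3.3) fitted every gene by lmFit and eBayes, with population as the sole term, and p-values were adjusted over all genes by Benjamini-Hochberg. limma stood in for the per-gene ANOVA of the study's methods, since it shares variance between genes. That per-gene test was also run, with the same adjustment and threshold as limma and without the paper's fold change cut. The fit was tested on simulated data. The number of arrays limits the precision, and no detection calls were used.

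Members and gene lists were chosen with earlier results of these data known. All members and the cohesin regulators are named, with up to 4 called genes per direction of other lists and the 5 genes of most similar pattern. Of the list genes, Lyz2 and Tcte3 were not matched, and Six6os1 was matched through an older symbol. Start regions came from RefSeq. Motif searches used Python 3.11.15.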

Additional observations from a re-analysis of the deposited data

How the results depend on the processing

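The members and lists were recomputed under 15 other settings: 3 other normalizations, only genes above the median level, the study's per-gene test, a mean-dependent robust variance, array weights, the replicate number as a fixed and as a random block, and each array left out. Ctcfl, Hdac8, Meikin and Sgo2b were below the median level and had 14. The 5 paralog differences, which need no variance model, had 10 and kept their direction in each. Rec8 and Smc1b kept their calls in all 15. Rad21l (0.50) passed above the median level (limma, adjusted p = 0.0325), with the robust variance (0.0397), and with the replicate block (0.0496 fixed, 0.0469 random). Stag3 (0.68) missed the threshold in the per-gene test (adjusted p = 0.0585), which called 1205 genes higher and 1307 lower. Smc3 (-0.23) passed in that test and with the robust variance, so 1 member was lower in each. Pds5b (0.36, or 0.39 with quantile normalization repeated) passed with that normalization, above the median level and with the robust variance, giving 1 of Smc3 and Pds5b higher in each, and 5 members higher in the last 2. Haspin turned to 0.0020 with array weights. Esco1 (0.34) passed above the median level and with the robust variance (limma, adjusted p = 0.0473 and 0.0370). The per-gene test called 9 S phase genes higher. The causes were not tested.

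With 1 array left out, the log2 fold change was 0.41 to 0.63 for Rad21l, -0.015 to 0.075 for Stag2 and -0.28 to 0.082 for Haspin, and 0 to 1 cohesin regulators were called lower. Without c-kit+ replicates 1 and 2, a setting added after seeing the data, the lone c-kit+ array is assumed to vary like the others. It gave 239 genes higher and 527 lower, 1 member (Smc1b, the 1 meiotic subunit), 2 regulators higher and 0 lower (limma), with 0.68 for Rec8, 0.51 for Stag3 and 0.051 for Haspin.

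Same-numbered arrays of the 2 populations correlated at 0.0999, 0.0973 and 0.137 in their deviations from the group means, each array best with its own number, a hint from the data and not the design. The replicate block changed the call of Rad21l alone among the members and cohesin regulators, and called 7 leukocyte genes higher. With 3 arrays against 3, the exact permutation test could not go below 0.1.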
